A study of Mus musculus with 8 samples.

Results

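The genes described here are 37 markers of fibroblasts and vessel wall cells, endothelial cells and epithelial cells, which are cells that a sort for inflammatory monocytes is meant to leave out. They were taken as a list of 37 symbols, and for each the brightest probe set that the platform annotation maps to that symbol alone was used. All 37 were measured among 22180 genes: 18 fibroblast and mural genes, 7 endothelial genes and 12 epithelial genes. The arrays are 8 Affymetrix arrays of RNA from cells of tumours, sorted for CD45, CD11b and high Ly6C, with 1 array per mouse.

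All mice were female C57BL/6, 8 weeks old, and carried a subcutaneous tumour of line 152. That is a single pancreatic cancer line from spontaneous tumours of mice that carried Trp53LSL-R172H/+ and Pdx1-Cre among their alleles, in which Cre driven by the Pdx1 promoter switches on mutant Trp53 in the pancreas. The tumours had grown for 14 days in the flank, a site other than the pancreas. The tumours of 4 mice then received 20 Gy, those of 4 mice received a sham treatment, and the cells were sorted 1 day later. Values are log2 signals, on which a step of 1 is a doubling. Probe sets differ in how strongly they bind, so a gene is compared with itself across arrays and not with other genes.

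Fibroblasts make the collagens and proteoglycans of the tumour matrix, and pericytes and smooth muscle cells, together called mural cells, wrap its vessels. Endothelial cells line those vessels and are joined by their own cadherin. Pancreatic cancer cells descend from epithelium and carry simple keratins, claudins and adhesion molecules. Such cells do not display CD45, the antigen of blood-derived cells on which the sort was gated.

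The genes of the sort stood high on every array. Ptprc, which encodes CD45, lay between 11.50 and 11.71, Itgam, which encodes CD11b, between 10.68 and 11.28, and Ly6c2 between 10.77 and 12.45. Csf1r, the receptor for the macrophage growth factor CSF1, lay between 10.61 and 10.99 and the monocyte chemokine receptor gene Ccr2 between 11.20 and 11.64. The median signal of an array lay between 4.68 and 4.73. As a reference for low signals, 27 genes of liver, neurons, testis and eye were read, called off-tissue genes here; 26 of them had means from 3.07 to 5.44, and Apoa2 stood at 7.10. Of the 37 markers 21 had a mean above 5.44, made up of 12 fibroblast and mural, 2 endothelial and 7 epithelial genes. The other 16 lay within the range of those off-tissue genes, so a low value among them is no measure of expression.

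Promoters are shown for 5 genes on which the results turn, the collagen genes Col1a2 and Col3a1 and the keratin genes Krt8 and Krt18, whose signals varied widely between arrays, and Kdr, whose signal followed another order of arrays. Each covers 250 bases before the annotated start and 50 after it, 5′ to 3′ on the gene's strand, from RefSeq on GRCm38.p6; RefSeq windows were given for 22 of the 37 genes. Capitals mark a match on either strand to the TATA box motif TATAAA, the CCAAT box, the GC box motif GGGCGG or the CArG box of smooth muscle promoters.
Col1a2 (chr6:4505368-4505667, plus strand): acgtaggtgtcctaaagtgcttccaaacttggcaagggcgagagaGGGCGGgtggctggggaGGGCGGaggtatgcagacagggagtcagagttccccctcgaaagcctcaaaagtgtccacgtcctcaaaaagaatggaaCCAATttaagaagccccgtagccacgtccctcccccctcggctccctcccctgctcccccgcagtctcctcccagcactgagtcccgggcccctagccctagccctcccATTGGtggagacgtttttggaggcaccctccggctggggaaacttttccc
Col3a1 (chr1:45311288-45311587, plus strand): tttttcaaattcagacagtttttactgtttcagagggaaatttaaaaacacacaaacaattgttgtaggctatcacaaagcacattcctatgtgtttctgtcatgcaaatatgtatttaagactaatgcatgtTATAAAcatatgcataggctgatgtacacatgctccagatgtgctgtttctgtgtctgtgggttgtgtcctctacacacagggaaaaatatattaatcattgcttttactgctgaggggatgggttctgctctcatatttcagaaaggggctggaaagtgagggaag
Krt8 (chr15:102004293-102004592, minus strand): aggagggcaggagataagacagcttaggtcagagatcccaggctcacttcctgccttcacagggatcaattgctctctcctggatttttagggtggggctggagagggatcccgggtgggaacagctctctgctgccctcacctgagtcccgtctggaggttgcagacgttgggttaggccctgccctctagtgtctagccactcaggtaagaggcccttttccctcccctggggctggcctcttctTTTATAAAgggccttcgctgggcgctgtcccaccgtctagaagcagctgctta
Krt18 (chr15:102027966-102028265, plus strand): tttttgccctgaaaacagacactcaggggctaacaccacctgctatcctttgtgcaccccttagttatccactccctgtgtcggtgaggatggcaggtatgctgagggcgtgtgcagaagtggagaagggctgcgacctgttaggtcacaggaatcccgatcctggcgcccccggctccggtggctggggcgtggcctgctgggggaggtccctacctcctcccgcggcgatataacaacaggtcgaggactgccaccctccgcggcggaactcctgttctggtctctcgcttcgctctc
Kdr (chr5:75978406-75978705, minus strand): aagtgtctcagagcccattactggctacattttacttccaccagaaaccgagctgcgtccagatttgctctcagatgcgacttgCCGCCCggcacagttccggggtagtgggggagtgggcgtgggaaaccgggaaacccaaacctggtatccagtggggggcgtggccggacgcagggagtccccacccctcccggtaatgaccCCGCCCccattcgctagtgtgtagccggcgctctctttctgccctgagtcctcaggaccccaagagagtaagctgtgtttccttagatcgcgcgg

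The Col1a2 window held CCAAT beginning 109 bases upstream of the start, a second CCAAT on the opposite strand at the start, and GGGCGG beginning 205 and 188 bases upstream. Col3a1 had TATAAA beginning 117 bases upstream. In Krt8 TATAAA overlapped itself on the 2 strands at the annotated start. In Kdr GGGCGG stood on the opposite strand, beginning 166 and 45 bases upstream, and the Krt18 window held none of the 4 motifs. Over the 26 windows given for the 22 genes, GGGCGG was present in 12 (46.2%, against 35.7% of all 32851 windows), and CCAAT in 4 (15.4% against 37.4%). TATAAA was present in 4 (15.4% against 13.6%) and the CArG box in 0 (against 1.63%). These are matches of letters and not sites of binding.

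The comparison asked which genes of these cells are associated with irradiation of the tumour, and for the 37 markers no difference between irradiated and sham mice passed. In limma with adjustment over all genes 0 of 37 were called, where 0.0% of the 22180 genes were called; their adjusted p ran from 0.819 to 0.999. At an unadjusted p under 0.05 there was 1 of 37, with the higher mean after irradiation, against 6.07% of all genes (2.05% higher and 4.03% lower). The groups of 4 failed to overlap for 0 of 37, against 3.68% of all genes (1.12% higher and 2.56% lower). A total of 22 markers had a higher mean in irradiated mice and 15 a lower one, where 42.2% of all genes had a higher one, with a median difference of 0.07 against -0.03 for all genes. The median difference was 0.14 for the 18 fibroblast and mural genes, of which 14 had a positive difference. It was -0.15 for the 7 endothelial genes, 2 of them positive, and 0.01 for the 12 epithelial genes, 6 of them positive. Without Pecam1, Tek and Esam, which leukocytes are also known to express, the endothelial median was -0.03. The differences ran from -0.38 for Emcn to 0.72 for Kdr. The 95% intervals reached 0.21 to 1.81 on the log2 scale to either side, so for the widest of them a change of several-fold was not detectable with 4 mice per group.

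**Figure D1:**
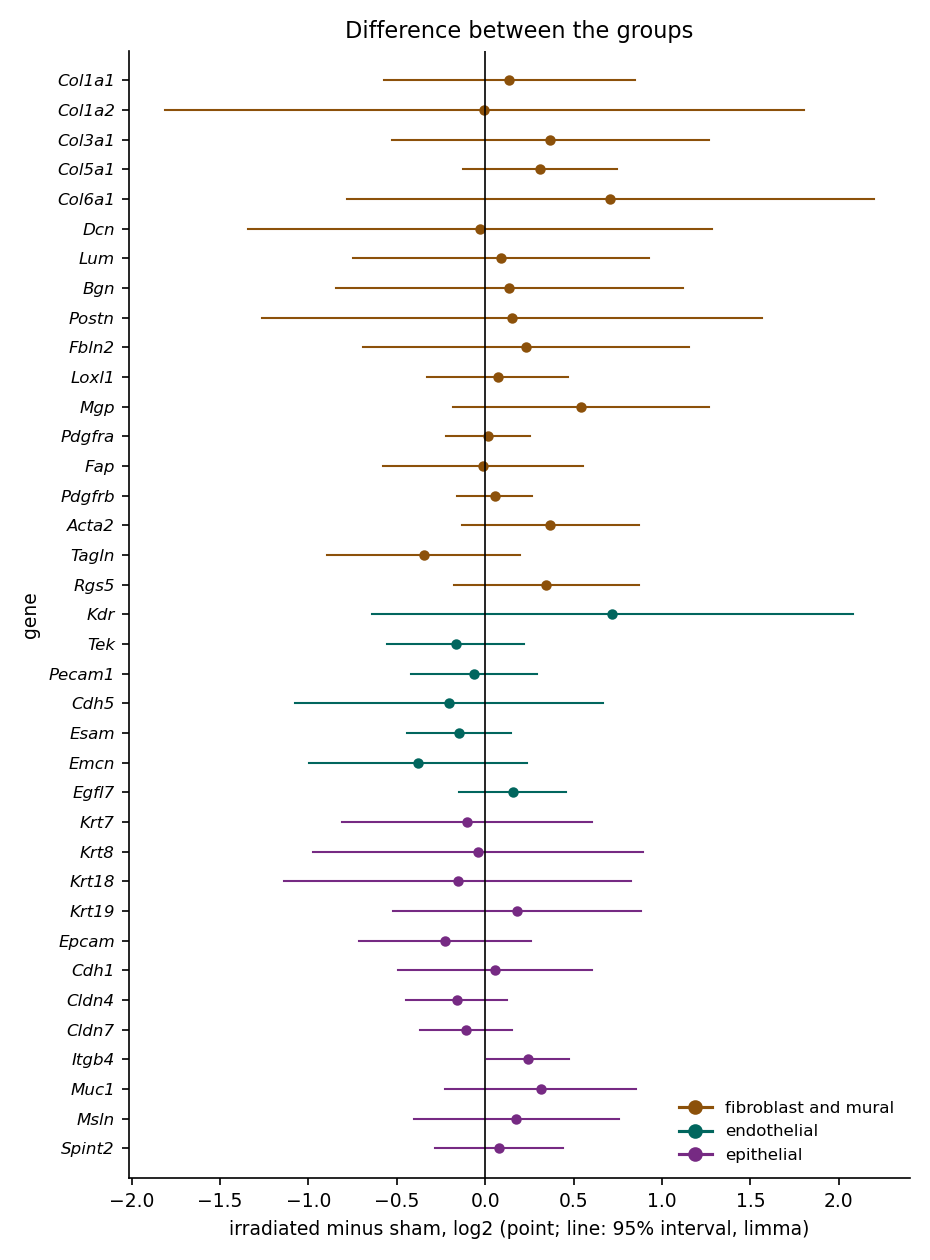
Difference between irradiated and sham mice for each of the 37 genes in log2 units (points), with the 95% interval from limma (lines), coloured by lineage; n = 4 mice per group. All intervals but that of Itgb4 cross 0, and the interval of Col1a2 runs from -1.81 to 1.80.

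Most of the 37 genes had a wide spread between mice, within each group as well as over all arrays. The range over the 8 arrays, highest minus lowest, had a median of 1.35 among the 37 genes and of 0.58 among all genes. Of the 37 genes 26 (70.3%) lay in the widest 10% of all genes by this range, a range of 1.05 or more. That held for 15 of 18 fibroblast and mural genes, 3 of 7 endothelial genes and 8 of 12 epithelial genes, and for 2 of the 27 genes of liver, neurons, testis and eye. These shares are descriptions of these arrays, since the genes of a list share the same RNA samples. The 37 genes were also chosen with earlier results of these data known, so their share is no test. As 26 of the 27 off-tissue genes had means of 5.44 or less, their share is no yardstick for markers with higher signals. The set of all genes was likewise not matched to the markers by signal. The count was 22 to 25 of 37 when any 1 array was omitted.

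**Figure D2:**
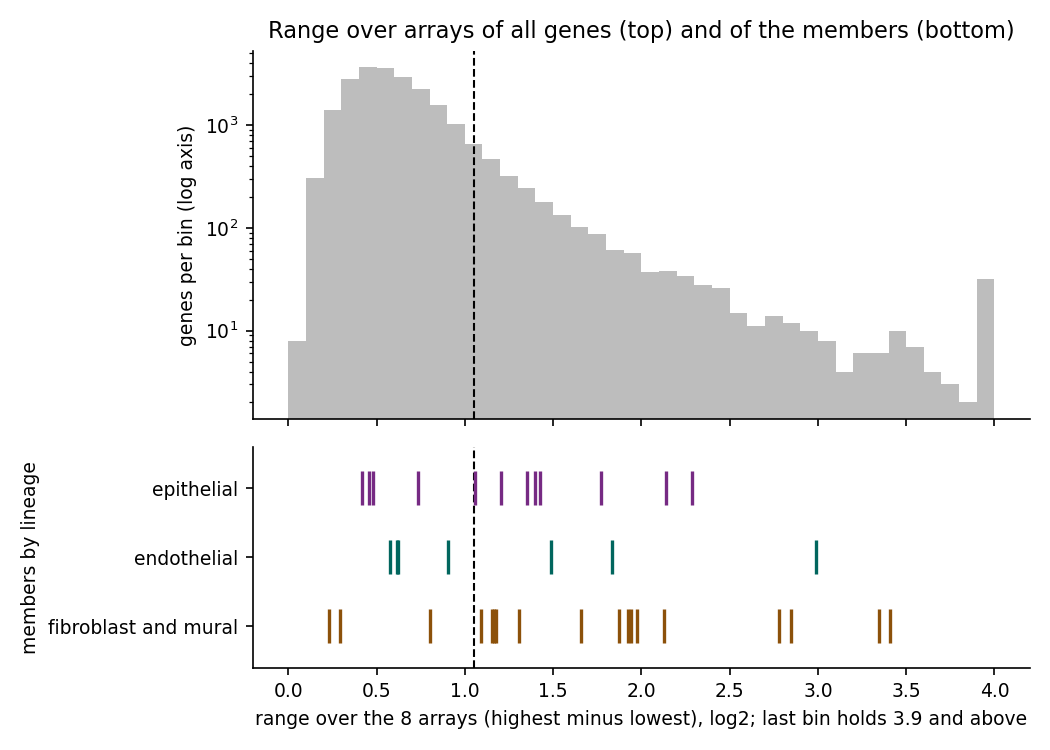
Upper panel: number of genes (log axis) by range over the 8 arrays in log2 units, for all 22180 genes. Lower panel: the 37 genes by lineage, 1 tick each; the dashed line is the range of 1.05 above which the widest 10% of genes lie, and 26 of the 37 ticks lie to its right.

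Col1a2 and Col6a1 had the widest ranges of the 37 genes on their brightest probe sets. Their second probe sets ranged over less, 1.40 and 0.89. Col1a2, one of the chains of type I collagen, stood at 6.80, 8.06, 9.95 and 8.29 on sham arrays 1 to 4 and at 9.67, 7.16, 6.54 and 9.71 on irradiated arrays 1 to 4. Sham mouse 3 and irradiated mice 1 and 4 were high, sham mouse 1 and irradiated mice 2 and 3 were low, and the groups overlapped almost completely. The range of 3.41 is 10.6-fold, and 0.252% of genes had a wider one. The group means were 8.27 ± 1.30 and 8.27 ± 1.66 (SD, n = 4 per group); the difference was -0.00 (95% interval -1.81 to 1.80).

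Col6a1, a chain of the microfibrillar type VI collagen, stood at 5.22, 6.92, 8.31 and 5.94 on sham arrays 1 to 4. On irradiated arrays 1 to 4 its values were 8.57, 6.10, 6.73 and 7.83. Again sham mouse 3 and irradiated mice 1 and 4 were the highest 3 arrays and sham mouse 1 was the lowest. The means were 6.60 ± 1.34 under sham treatment and 7.31 ± 1.10 after 20 Gy (SD, n = 4 per group); the difference was 0.71 ± 0.67 (SE; limma adjusted p = 0.896). Without sham mouse 3 that difference was 1.28.

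Col3a1, the fibrillar collagen of loose tissue, stood at 5.65, 6.88, 7.78 and 6.77 after sham treatment and 7.64, 6.81, 6.56 and 7.56 after 20 Gy, in the order of mouse number. Col1a1, the other chain of type I collagen, stood at 5.50, 6.00, 7.15 and 6.37 after sham treatment and 6.77, 6.01, 6.09 and 6.70 after 20 Gy. In each of these sham mouse 3 was the highest array and sham mouse 1 the lowest. Col5a1, a minor fibrillar collagen, lay between 4.12 and 5.27, within the range of the off-tissue genes. The differences of these 3 genes were 0.37 ± 0.40, 0.14 ± 0.32 and 0.31 ± 0.20 (SE), and none was called.

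The matrix proteoglycans followed a partly like order. Dcn, which encodes decorin, a proteoglycan that coats collagen fibrils, stood at 4.64, 6.39, 7.27 and 5.87 on sham arrays 1 to 4 and at 6.90, 6.31, 4.49 and 6.34 on irradiated arrays 1 to 4. It was highest in sham mouse 3 and lowest in irradiated mouse 3, next to sham mouse 1. Bgn, which encodes biglycan, stood at 7.04, 8.24, 8.90 and 7.63 under sham treatment and 8.65, 8.10, 6.96 and 8.65 after 20 Gy. Lum, which encodes lumican, lay between 3.61 and 5.59, with sham mouse 1 lowest and sham mouse 3 highest. Irradiated mouse 4, high for the collagens, stood at 4.36 for Lum, below irradiated mouse 3 at 4.87. The mean of Lum over all arrays, 4.67, lay within the range of the off-tissue genes. The differences of Dcn, Bgn and Lum between the groups were -0.03, 0.14 and 0.09 and none was called.

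Among the other secreted matrix genes, Postn, which encodes the matricellular protein periostin, stood at 5.22, 7.34, 8.07 and 6.62 under sham treatment and 7.64, 7.06, 5.38 and 7.78 after 20 Gy. Fbln2, which encodes the elastic fibre protein fibulin 2, stood at 5.87, 6.69, 7.80 and 6.19 under sham treatment and 7.46, 6.06, 6.67 and 7.29 after 20 Gy. Sham mouse 3 was highest and sham mouse 1 lowest for each of the 2 genes. Loxl1, an elastin cross-linking enzyme, kept to a range of 0.80 between 4.20 and 5.01, within the range of the off-tissue genes.

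Mgp, which encodes matrix Gla protein, an inhibitor of calcification, did not keep that order. It stood at 6.34, 7.14, 7.31 and 6.62 after sham treatment and at 7.21, 6.58, 8.21 and 7.58 after 20 Gy. Irradiated mouse 3, the lowest array for Col1a2, Dcn and Bgn, was the highest for Mgp. The gelatinase gene Mmp2, from the further fibroblast genes described below, was also highest there, at 7.69 against 5.29 to 5.80 on the other arrays. Its 4 irradiated values lay above its 4 sham values, as for 1.12% of all genes. The highest sham value of Mmp2, 5.64, was close to its lowest irradiated value, 5.71. The difference of Mmp2, 0.83 ± 0.39 (SE), was not called (limma adjusted p = 0.822), and the difference of Mgp was 0.54 ± 0.33.

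Several classical fibroblast and mural markers stayed near the floor. Pdgfra, the platelet-derived growth factor receptor that marks fibroblasts, lay between 3.46 and 3.76. Its counterpart on pericytes, Pdgfrb, lay between 4.39 and 4.62. Their ranges of 0.29 and 0.23 were narrower than those of 92.8% and 97.4% of all genes. Fap, the protease of activated fibroblasts, lay between 4.02 and 5.11 and was highest in sham mouse 4, with sham mouse 2 lowest. Sham mouse 3, the highest array for most collagens, was the highest for none of these 3.

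Acta2, the smooth muscle actin of mural cells and activated fibroblasts, stood at 7.02, 7.54, 7.73 and 7.31 under sham treatment and 8.33, 7.32, 7.51 and 7.92 after 20 Gy. It was highest in irradiated mice 1 and 4, and the difference of 0.37 ± 0.23 (SE) was not called (limma adjusted p = 0.843). Tagln, the actin-binding transgelin, stood at 5.67 ± 0.18 under sham treatment and 5.32 ± 0.57 after 20 Gy (SD, n = 4 each), with irradiated mice 2 and 3 at 4.88 and 4.80, the lowest arrays. Rgs5, a pericyte regulator of G protein signalling, stood at 5.66, 5.26, 5.76 and 6.08 under sham treatment and 6.24, 6.10, 5.37 and 6.42 after 20 Gy. The second probe set of Rgs5 gave a difference of -0.03 in place of 0.35.

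**Figure D3:**
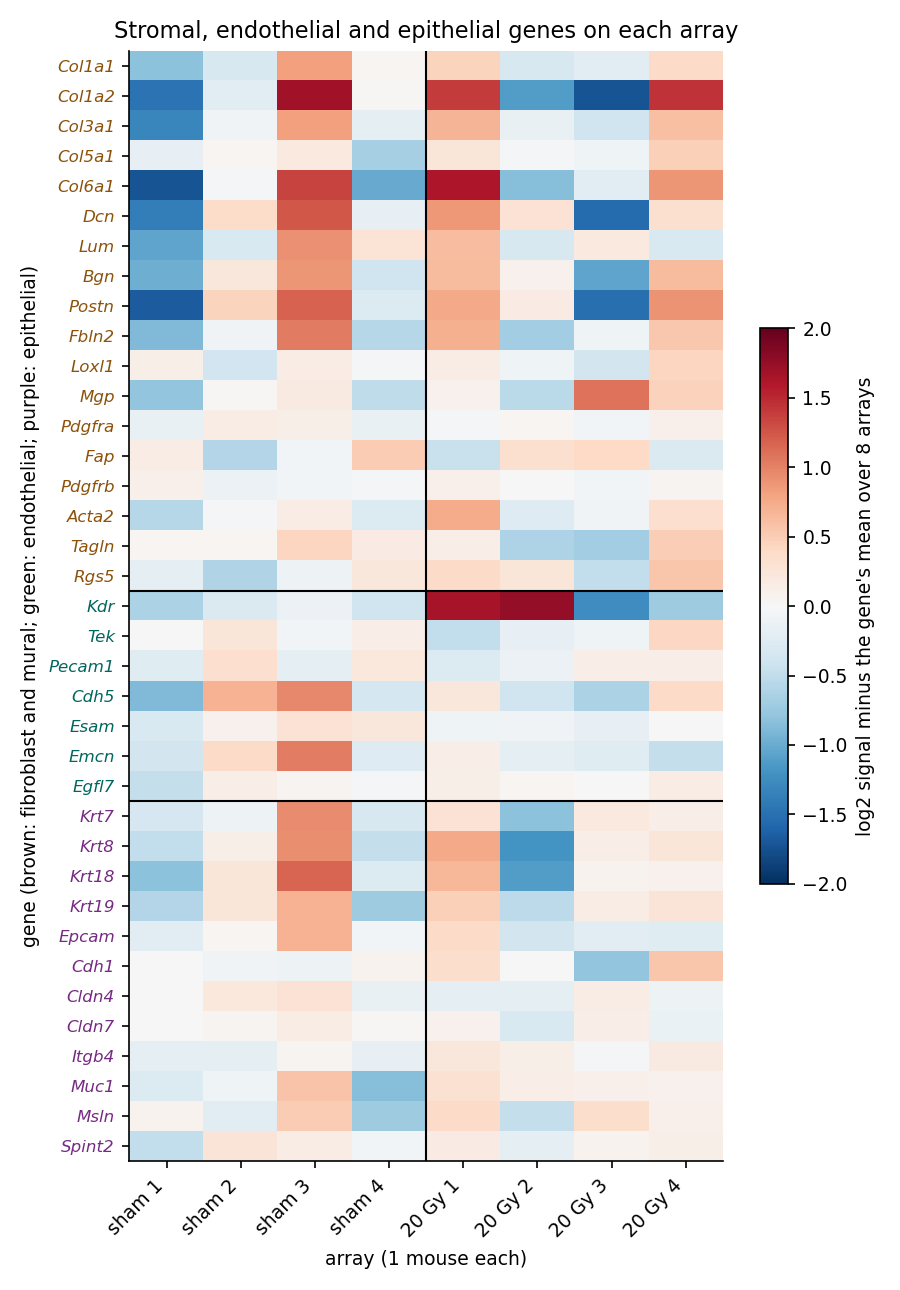
Colour gives the log2 signal of each of the 37 genes (rows, grouped by lineage) on each of the 8 arrays (columns) minus that gene's mean over the 8 arrays. Most collagen, proteoglycan and keratin rows are red in sham mouse 3 and irradiated mouse 1 and blue in sham mouse 1, whereas Kdr is red in irradiated mice 1 and 2 alone.

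The keratins also varied widely between mice, in a partly different order. Krt18 and Krt8 encode the paired type I and type II filaments of simple epithelium. Krt18 stood at 7.56, 8.63, 9.55 and 8.11 on sham arrays 1 to 4 and at 9.04, 7.26, 8.45 and 8.47 on irradiated arrays 1 to 4. Krt8 stood at 7.25, 7.86, 8.67 and 7.26 under sham treatment and 8.49, 6.54, 7.87 and 7.98 after 20 Gy. For each of the 2, sham mouse 3 was highest, irradiated mouse 1 next and irradiated mouse 2 lowest, and the groups overlapped. The differences were -0.16 ± 0.44 and -0.04 ± 0.42 (SE).

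The other keratins of ducts followed. Krt19, a keratin of ductal epithelium, stood at 5.74, 6.56, 7.01 and 5.61 under sham treatment and 6.79, 5.80, 6.47 and 6.57 after 20 Gy. Krt7, a keratin of glandular ducts, lay between 5.38 and 6.66 under sham treatment and 4.89 and 6.01 after 20 Gy. The mean of the 4 keratins was 7.97 in sham mouse 3, 7.58 in irradiated mouse 1 and 6.12 in irradiated mouse 2. Irradiated mouse 3 showed where keratins and collagens parted: its keratin mean of 7.18 was above those of sham mice 1 and 4, at 6.48 and 6.60, while its collagen mean of 6.13 was the lowest after sham mouse 1. In irradiated mouse 2 the collagen mean was 6.17.

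Epithelial adhesion genes were mostly steadier. Epcam, the adhesion molecule of epithelial and carcinoma cells, stood at 5.13, 5.38, 6.03 and 5.28 under sham treatment and 5.73, 4.98, 5.11 and 5.10 after 20 Gy, highest in the same 2 arrays as Krt8. The mean of Epcam over all arrays, 5.34, lay within the range of the off-tissue genes. The tight junction genes Cldn4 and Cldn7 lay between 5.14 and 5.62 and between 4.28 and 4.74, ranges narrower than those of most genes. Cdh1, which encodes E-cadherin, stood at 9.37, 9.29, 9.26 and 9.43 after sham treatment and 9.72, 9.37, 8.57 and 9.92 after 20 Gy. Its SD among sham mice was 0.08, so it did not move with the keratins there, where Krt18 had an SD of 0.85. E-cadherin is also known on some macrophages and dendritic cells. The second probe set of Cdh1 likewise stood at 8.99 to 9.11 in sham mice and was lowest, at 8.26, in irradiated mouse 3.

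Itgb4, the integrin chain of hemidesmosomes, was the gene with the smallest p of the 37. It stood at 5.26, 5.26, 5.51 and 5.28 after sham treatment and at 5.67, 5.57, 5.41 and 5.62 after 20 Gy. The groups overlapped through sham mouse 3 and irradiated mouse 3, and all values lay near the upper bound of the off-tissue genes. The difference was 0.24 ± 0.11 (SE, 95% interval 0.01 to 0.48), at an unadjusted p of 0.0444 and an adjusted p of 0.819 in limma.

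The epithelial surface genes Muc1, a mucin, and Msln, which encodes mesothelin, were highest in sham mouse 3, at 5.61 and 5.82, and lowest in sham mouse 4, at 4.19 and 4.61. Their irradiated values lay inside the sham range, between 5.13 and 5.34 for Muc1 and between 4.84 and 5.70 for Msln. The means of Muc1 and Msln over all arrays, 5.04 and 5.32, lay within the range of the off-tissue genes. Spint2, a widely expressed inhibitor of serine proteases, lay between 5.75 in sham mouse 1 and 6.49 in sham mouse 2. The differences of the 3 genes were 0.31, 0.18 and 0.08.

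Endothelial genes were low or steady apart from 3. Cdh5, the cadherin of endothelial junctions, stood at 4.61, 6.18, 6.45 and 5.14 after sham treatment and 5.72, 5.09, 4.85 and 5.88 after 20 Gy. It was highest in sham mice 2 and 3 and lowest in sham mouse 1. Emcn, which encodes the endothelial sialoprotein endomucin, stood at 4.03 and 4.67 in sham mice 2 and 3 and between 3.18 and 3.79 on the other 6 arrays, all within the range of the off-tissue genes. Tek, the angiopoietin receptor, Esam, a junction protein, and Egfl7, a secreted vessel factor, lay between 2.75 and 3.66, between 3.94 and 4.52 and between 4.88 and 5.50. Pecam1, a junction protein that monocytes and other blood cells also carry, lay between 7.41 and 8.03, and its range of 0.62 was near the median of all genes.

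Kdr, which encodes the main receptor for vascular endothelial growth factor, followed another order of arrays than the collagens and keratins. Irradiated mice 1 and 2 had values of 6.91 and 7.02, irradiated mice 3 and 4 of 4.03 and 4.55. The sham mice had 4.63, 4.98, 5.15 and 4.86. Irradiated mice 1 and 2 thus lay above all sham mice. Irradiated mice 3 and 4 were below all of them, mouse 4 by little, at 4.55 against 4.63. Apart from irradiated mice 1 and 2, every Kdr value was under 5.44, the upper bound of the off-tissue genes. The mean of Kdr over all arrays, 5.26, was also under it. Such low Kdr signals are no measure of expression, so the order among them carries no weight. The means were 4.90 ± 0.22 under sham treatment and 5.62 ± 1.56 after 20 Gy (SD, n = 4 per group); the difference was 0.72 ± 0.61 (SE; limma adjusted p = 0.885). Without irradiated mouse 1 the difference was 0.29 and without irradiated mouse 3 it was 1.25. Cdh5 and Emcn were not highest in those 2 mice, and the decoy receptor gene Flt1 stood at 6.27 and 5.46 there. Aplnr, the apelin receptor gene from the further endothelial list, named after its values were seen, was highest in those 2 mice, at 7.32 and 6.12, against 4.68 to 5.75 on the other 6 arrays.

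Among 763 genes with an SD of at least 0.5, those whose signal was most like Kdr over the 8 arrays were sought after its values were seen. They were Ifi213 (Pearson r = 0.991), Spic (0.968), Ifi208, BC147527 (0.946) and Calhm6 (0.944), given as a description without a test, since all share the same 8 RNA samples. Ifi213 and Ifi208 belong to the interferon-inducible p200 family, and Spic is a transcription factor of red pulp macrophages. Irradiated mice 1 and 2 had Spic values of 9.01 and 9.10, with Spic between 4.82 and 5.94 on the other 6 arrays. Ifi213 stood at 8.81 or more in those 2 mice and between 6.83 and 7.50 on the others.

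**Figure D4:**
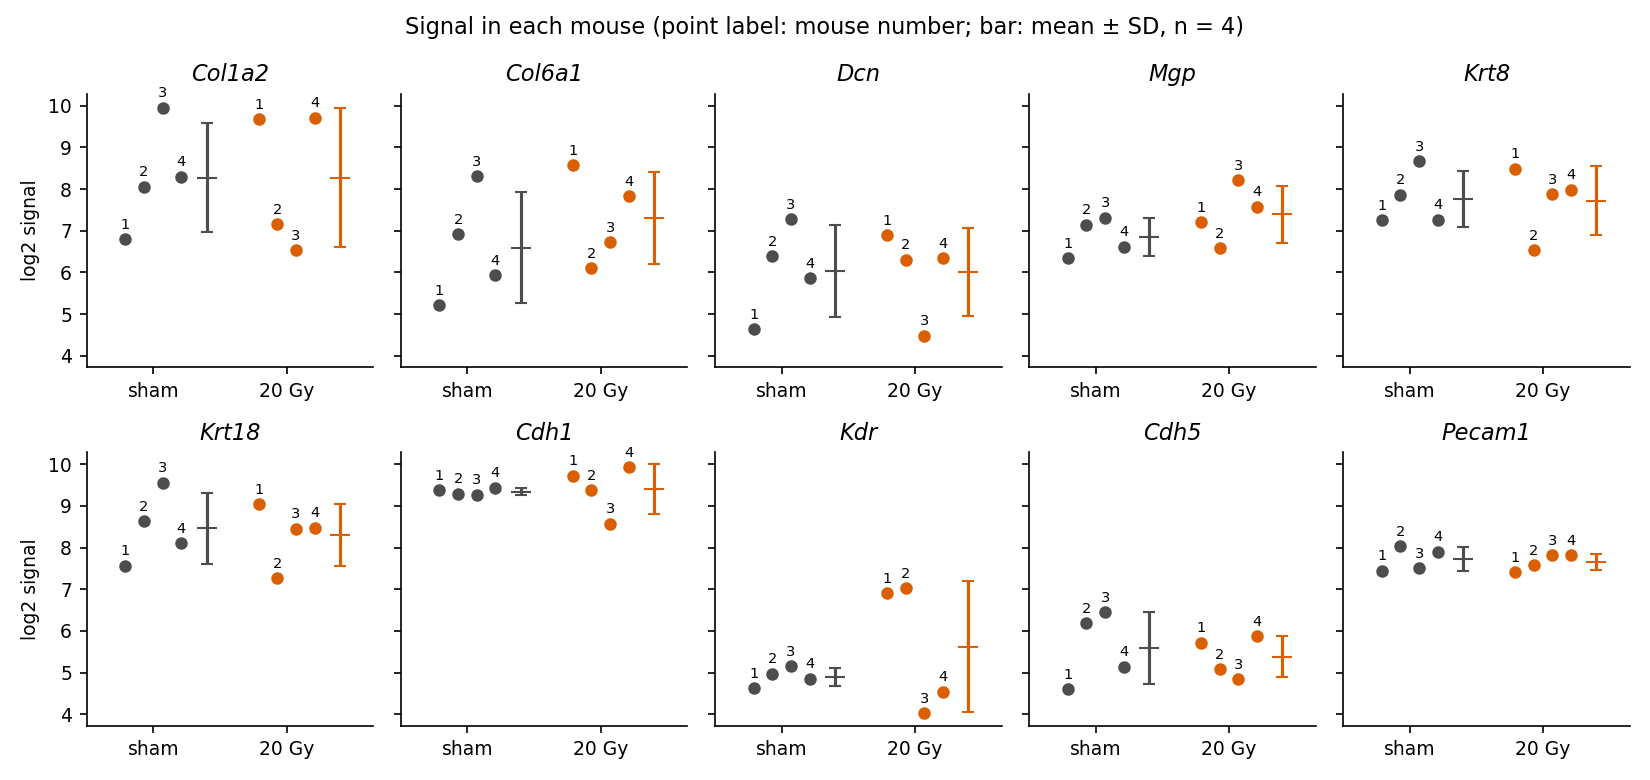
Log2 signal of 10 genes in each mouse (points, labelled with the mouse number), with the mean ± SD of 4 mice beside each group; grey is sham and orange is irradiated. Col1a2 spreads from 6.54 to 9.71 among irradiated mice, Pecam1 stays between 7.41 and 8.03, and Kdr separates irradiated mice 1 and 2, at 6.91 and 7.02, from all other mice.

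The order of arrays was shared by many of the genes. Sham mouse 3 was the highest of the 8 arrays for 20 of the 37, made up of 8 fibroblast and mural, 3 endothelial and 9 epithelial genes; it was the highest array for 13.7% of all genes and the lowest for 0 of the 37. Within the sham group alone, sham mouse 3 was highest for 28 of 37 (23.1% of all genes) and sham mouse 1 lowest for 23 of 37 (24.7% of all genes). Within the irradiated group, mouse 1 was highest for 18 of 37 and mouse 4 for 13 of 37, against 25.5% and 23.0% of all genes. Irradiated mouse 3 was lowest of its group for 11 of 18 fibroblast and mural genes but for 2 of 12 epithelial genes. Irradiated mouse 2 was lowest of its group for 8 of the 12 epithelial genes and for 6 of the 18 fibroblast and mural genes. Over all genes, irradiated mouse 3 was lowest of its group for 25.4% and irradiated mouse 2 for 24.4%. Whether the 2 lineages differ in which array was lowest was not tested.

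In bulk RNA of this kind, fewer cells of a type and less of its RNA per cell cannot be told apart. Which cells in the sorted fraction carried these transcripts was not tested. Markers of other blood cells also differed between arrays, those of T and NK cells in an order partly like that of the collagens and those of neutrophils in another. The mean of 13 T and NK cell markers, measured of 16 listed, was 7.69 and 7.93 on sham arrays 2 and 3, against 5.49 and 5.77 on sham arrays 1 and 4. Irradiated arrays 1 and 4 had means of 6.69 and 6.76, irradiated arrays 2 and 3 of 5.39 and 5.33. Sham mouse 3 and irradiated mice 1 and 4 were high both in T cell markers and in Col1a2. Sham mouse 2, second highest in the T cell markers, stood at 8.06 for Col1a2, below sham mouse 4 at 8.29. Irradiated mice 1 and 4 had 9.67 and 9.71 for Col1a2. Cd3e, a chain of the T cell receptor complex, ran from 6.03 to 9.36 after sham treatment and from 5.09 to 7.89 after 20 Gy. The mean of 12 neutrophil markers was 8.61 on sham array 3 and between 7.32 and 7.55 on the other sham arrays. Irradiated arrays 1 and 4, high for the collagens, had its lowest values, 6.30 and 6.40, and irradiated array 3, low for the collagens, its second highest, 7.78. The neutrophil genes did not share 1 order: the granule gene Camp stood at 8.02 and 10.10 in sham mice 2 and 3 and between 3.08 and 3.69 on the other 6 arrays. The chemokine receptor gene Cxcr2 had 6.95 and 7.40 in sham mice 2 and 3, against 9.72 and 9.35 in sham mice 1 and 4, and was highest, at 10.04, in irradiated mouse 3. The mean of 9 B and plasma cell markers, of 10 listed, ran from 5.04 to 6.30 after sham treatment and from 4.64 to 5.52 after 20 Gy, again highest in sham mouse 3. Their part in the spread of the 37 genes was not tested.

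List means for other tissue near a subcutaneous tumour differed less between arrays, at low signal. The list means of 5 adipocyte, 10 skeletal muscle, 7 skin keratinocyte and 4 melanocyte and Schwann cell markers measured each differed by at most 0.41 between the highest and the lowest array. They lay between 4.12 and 4.66, within the range of the off-tissue genes, so they say little about a spread. Of single genes 2 of 7 skin keratinocyte and 1 of 10 skeletal muscle markers lay in the widest 10% by range. Among the adipocyte and the melanocyte and Schwann cell markers 0 did. The mean of 7 mast cell and basophil markers differed by 0.29 and that of 6 erythroid and platelet markers by 0.84. In the widest 10% by range lay 1 of those 7 and 2 of those 6. The mean of the 9 sort and monocyte genes lay between 11.30 and 11.49. Over the same arrays the mean of the 5 collagens ran from 5.56 to 7.64 and that of the 4 keratins from 6.12 to 7.97.

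**Figure D5:**
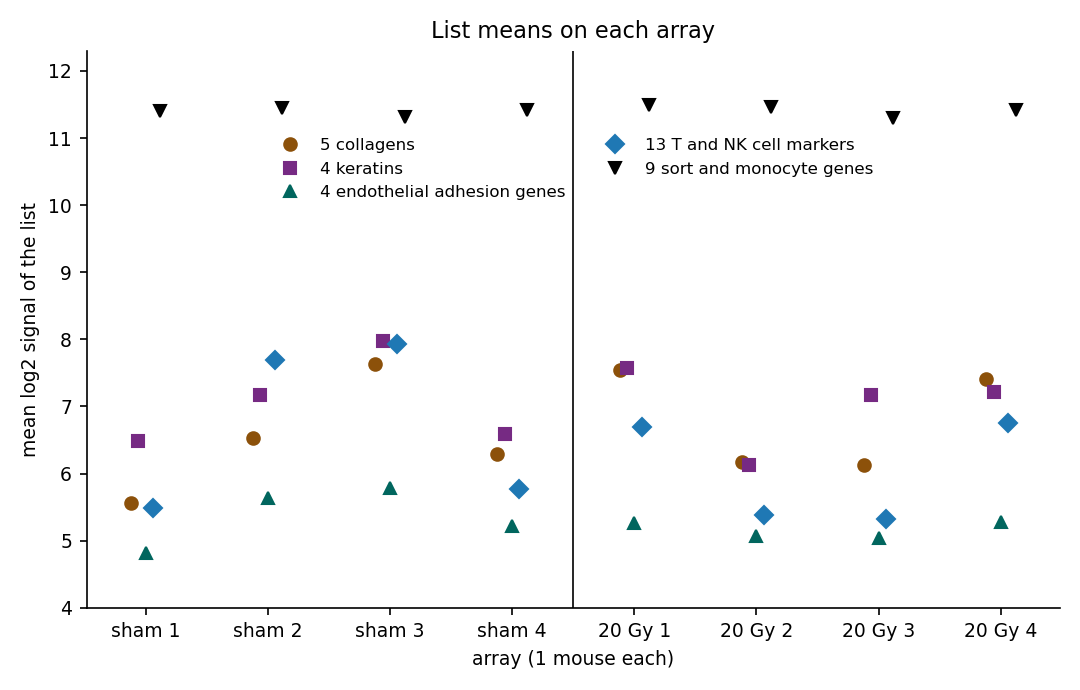
Mean log2 signal of 5 lists (symbols) on each of the 8 arrays, 1 mouse each. The 5 collagens run from 5.56 in sham mouse 1 to 7.64 in sham mouse 3 and the 13 T and NK cell markers from 5.33 to 7.93, while the 9 sort and monocyte genes stay between 11.30 and 11.49.

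Wider lists of the same lineages were read beside the 37 genes. Of 39 further fibroblast genes, 25 had a positive and 14 a negative difference, with a median of 0.08; 0 were called by limma and 0 had an unadjusted p under 0.05. A total of 17 of the 39 lay in the widest 10% by range. The widest range, 3.54, was that of Thy1, named after its values were seen. It was highest in sham mice 2 and 3, at 8.70 and 9.01, where the T cell gene Cd3e was also highest. The brightest were Sparc, a collagen-binding matricellular protein, Igfbp7, an insulin-like growth factor binding protein of vessels and stroma, and Pcolce, which enhances procollagen cleavage. Sparc stood at 7.30, 8.84, 9.54 and 8.29 under sham treatment and 8.94, 7.88, 7.76 and 9.20 after 20 Gy. Its order was that of the collagens, with sham mouse 3 highest and sham mouse 1 lowest. Besides Mmp2, the smallest p belonged to Col4a1, a basement membrane collagen (0.26 ± 0.13, SE), and Col16a1 (0.22 ± 0.12).

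Of 12 further mural genes, 0 were called, 6 differences were positive and 3 genes lay in the widest 10%. The brightest, Tpm2, Cald1 and Myl9, encode tropomyosin, caldesmon and a myosin light chain, and differed by 0.29, 0.38 and 0.07; the adhesion molecule gene Mcam differed by -0.42 ± 0.21 (SE) and the calponin gene Cnn1 by 0.35 ± 0.20. The pericyte and smooth muscle markers Abcc9, Myh11 and Cspg4, named after their values were seen, ranged over 0.16, 0.25 and 0.29, narrower than in at least 93.4% of genes. Of 25 further endothelial genes 0 were called and 6 lay in the widest 10%. At an unadjusted p under 0.05 there were 2 of 25, where 6.07% of all genes were under it: Nos3, the endothelial nitric oxide synthase (0.29 ± 0.10, SE), and Plvap, a protein of endothelial diaphragms (-0.28 ± 0.11). Both stood between 4.66 and 5.47, near or within the range of the off-tissue genes. The brightest were Eng, Cd34 and Flt1, with differences of 0.09, -0.13 and 0.04.

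Of 33 further epithelial genes 0 were called, 16 differences were positive and 7 genes lay in the widest 10%. The brightest were Spint1, a protease inhibitor, which lay between 9.35 and 9.98, Lcn2, a lipocalin that neutrophils also make, and the trefoil factor gene Tff1. Tff1 stood at 6.42, 6.75, 7.99 and 5.52 under sham treatment and 7.42, 6.08, 7.76 and 6.97 after 20 Gy, high in sham mouse 3 and irradiated mice 1 and 3. Krt20, a keratin of gut and tumour epithelium named after its values were seen, stood at 7.81 in sham mouse 3 and 5.19 in irradiated mouse 2, the highest and lowest arrays, as for Krt8 and Krt18. At an unadjusted p under 0.05 there were 2 of 33, against the same 6.07% of all genes. The smallest p belonged to Krt17 (0.40 ± 0.15, SE), Rab25 (-0.26 ± 0.11) and Pkp3 (-0.17 ± 0.10), none above 5.52 on any array.

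Genes outside all lists were ranked by likeness to the mean of each lineage over the 8 arrays, among 697 genes with an SD of at least 0.5. Those most like the fibroblast and mural mean were Ltbp1, which stores TGF-beta in the matrix (Pearson r = 0.966), Ehd2 (0.954), the laminin gene Lamb1 (0.937), Gbp4 (0.935) and the collagen-modifying enzyme gene Plod2 (0.930). Those most like the epithelial mean were Igfbp4 (0.979), the carboxypeptidase gene Cpe (0.978), 9130008F23Rik (0.973), the peroxidasin gene Pxdn (0.970) and Igfbp3 (0.968). Cpe stood at 8.39 in sham mouse 3 and 8.17 in irradiated mouse 1, against 5.70 in irradiated mouse 2. For the endothelial mean they were Cst7 (0.923), Gzmb (0.897), Gpm6b (0.886), Ccl5 (0.866) and Mfap5 (0.864). Of the 7 endothelial genes, only Pecam1 and Cdh5 had means above the range of the off-tissue genes. The endothelial mean thus holds mostly low signals, and it includes Kdr, which followed another order of arrays. Gzmb, which encodes granzyme B of cytotoxic lymphocytes, stood at 7.35 and 7.16 in sham mice 2 and 3, where Cdh5 was also highest. Ccl5 lay between 10.11 and 11.97 and Cst7 between 6.76 and 8.26 over the 8 arrays. Which cells carried these transcripts was not tested. These correlations describe 8 arrays that share their RNA with the lists and carry no test.

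Of the 37 genes 7 had a second probe set. For Col1a2 the second set ranged over 1.40 in place of 3.41, with sham mouse 3 again highest, and gave a difference of 0.20 in place of -0.00. For Col6a1 it ranged over 0.89 in place of 3.34, with sham mouse 1 again lowest. The difference there was 0.09 in place of 0.71. For Col5a1 it ranged over 0.66 in place of 1.15, and for Bgn over 1.05 in place of 1.94. The second sets of Col6a1 and Col5a1 thus lay below the bound of the widest 10%, and that of Bgn close to it. For Krt18 the second set ranged over 1.81 in place of 2.29, with sham mouse 3 highest. Its difference was 0.16 in place of -0.16. For Cdh1 the difference was -0.06 in place of 0.06. The sign of the group difference thus depended on the probe set for Krt18, Rgs5, Cdh1 and Col1a2, that of Col1a2 being close to 0 on the brighter set.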

How the data were processed

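RNA of sorted cells from 8 tumours was measured on 1 Affymetrix array per mouse. The deposited values are log2 signals: the submitters' processing notes name RMA and Partek, and the log2 scale was read from the values, while versions and background settings are not given in these sources. Groups came from the sample titles. The full genotype behind the tumour line is not reported here. Of 34365 probe sets the platform annotation maps 23521 to 1 symbol, 1814 to several and 9030 to none; for symbols with several probe sets the brightest on average was kept, which left 22180 genes.

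All genes were fitted in limma 3.58.1 (R 4.3.3, lmFit and eBayes), 4 irradiated against 4 sham mice, without covariates; p-values were adjusted by Benjamini-Hochberg across the 22180 genes and called under 0.05, and the steps were tested on simulated data. The number of arrays limits the precision. Further genes were named as the 3 brightest and the 3 with the smallest p of each list. The members and lists were chosen with earlier results of these data known. Alternatives were quantile normalisation, subtracting array medians, leaving out dim genes, averaging probe sets, testing all probe sets, a trended and robust variance, array weights, a replicate block, leaving out members that leukocytes also express, and leaving out each array.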

Additional observations from a re-analysis of the deposited data

Results flagged for a closer look

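In Krt7 irradiated mouse 2 stood at 4.89, below the other irradiated mice at 5.84 to 6.01, and its gap exceeded Dixon's 95% value for 4 samples. In Itgb4 sham mouse 3 stood at 5.51, above the other sham mice at 5.26 to 5.28. These were 2 of 74 groups of 4 looked at, and chance gives about 1 in 20.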

How the results depend on the processing

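With 4 mice per group, limma called 0 of the 37 genes in every setting run, and the lowest adjusted p of any of them was 0.76. Over all genes 0 were called, save 1 (H2ac15) without irradiated mouse 1, so that the count with each array left out ran from 0 to 1. The count of the 37 genes whose groups did not overlap was 0 and ran from 0 to 2 with each array left out (Esam without sham mouse 1, Itgb4 and Muc1 without sham mouse 3, Epcam without irradiated mouse 1, Rgs5 and Itgb4 without irradiated mouse 3, Tek without irradiated mouse 4), when 6.38% to 7.25% of all genes did not overlap. The median difference of the fibroblast and mural genes ran from -0.01 without sham mouse 1 to 0.43 without sham mouse 3, that of the endothelial genes from -0.19 to -0.01 and that of the epithelial genes from -0.10 to 0.20. With dim genes left out the endothelial median was 0.05. Without the members that leukocytes are also known to express (Pecam1, Tek and Esam; Cdh1, Epcam and Spint2) the endothelial median was -0.03 in place of -0.15 and the epithelial median -0.04 in place of 0.01. Of 583 differences of single genes over 16 settings 54 had the other sign, in 20 of the 37 genes, and none of these was called. The count in the widest 10% of ranges was 25 after quantile normalisation and 24 with probe sets averaged; this count and that of groups without overlap were tried in these settings after seeing the data.

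The mouse numbers did not pair the samples: the deviations of same-numbered mice correlated at -0.28, -0.168, -0.177 and -0.144. With the replicate number as a block limma called 0 genes, and the medians were 0.14, -0.15 and 0.01 for the 3 lineages.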
